A study of Rattus norvegicus with 23 samples.

Results

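The mitochondrial genome genes measured here were the 35 genes that the count tables place on the mitochondrial chromosome (MT), of 32552 genes in all. They were 13 protein genes, of which 7 encode subunits of complex I of the respiratory chain, 1 a subunit of complex III, 3 subunits of complex IV and 2 subunits of ATP synthase, and 22 tRNA genes. By strand, 26 genes lie on the plus strand and 9 on the minus strand. The tables give Ensembl identifiers and positions without symbols. Names were therefore assigned from the conserved order of mitochondrial genes, and the strand and length of each gene were checked against its name. The mitochondrial rRNA genes were not analysed here.

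The RNA came from the dorsal striatum of 23 adult male wild type Long Evans rats, with 1 library per rat. Control rats (Ct, n = 6) self-administered saline and received no footshocks. The other rats self-administered methamphetamine (METH) at 0.1 mg/kg per infusion over 22 days, received footshocks on 8 days (0.18 mA at first and 0.36 mA at the end), and went through 15 days of abstinence, 12 days of renewed self-administration with 3 days of 0.30 mA footshocks, and 15 more days of abstinence. By their intake under shock, METH rats were shock resistant in both phases (SR, n = 6, the always shock-resistant rats of the study), resistant only when METH was taken again (RSR, n = 5, the delayed shock-resistant rats) or shock sensitive throughout (SS, n = 6). These groups were formed from behavior and were not assigned at random, and all METH rats had METH as well as footshocks, so the Ct comparisons cannot tell the one from the other. Rat codes begin with Grp7 or Grp8, treated here as a cohort number. Cohort 7 gave 4 Ct, 3 SR, 2 RSR and 4 SS rats and cohort 8 the rest.

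The mitochondrial genome is a small circular DNA carried in many copies per cell. Both of its strands are transcribed as long precursors, and the tRNAs that lie between the protein genes mark many of the sites where the precursors are cut into single RNAs. The protein genes encode core subunits of the respiratory chain and ATP synthase, whose other subunits come from nuclear genes, and the tRNAs serve translation inside the mitochondrion. Neurons depend on this pathway for most of the ATP that their ion pumps consume.

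Total counts per library ranged from 18967015 to 28137676. RNA had been selected by its poly(A) tail, so RNAs without one, such as mature tRNAs, are under-represented by design. The library kit is not described as directional and the strand setting of the counting is not given in the sources used here. Counts of the 9 minus-strand genes can therefore include RNA of the opposite strand. The labelled tissue was not checked against marker genes, because the tables pair no symbols with nuclear genes.

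The 35 genes took a median of 13.1% of the counts of a library. The share ran from 11.6% to 13.4% in Ct rats with a median of 12.8% (mean 12.6% ± 0.731, SD, n = 6). It ran from 11.7% to 15.9% in SR rats with a median of 13.4% (13.6% ± 1.68, n = 6). In RSR rats the values were 14.8%, 12.7%, 14.1%, 12.99% and 14.7% (13.9% ± 0.973, n = 5). In SS rats the share ran from 11.9% to 19.6% with a median of 13.1% (13.8% ± 2.88, n = 6). The ranges of all 4 groups overlapped.

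SS rat Grp7-R1 alone held the 19.6%, and the other 5 SS rats ran from 11.9% to 13.3%. Without this rat the SS mean was 12.7% ± 0.652 (n = 5). Within cohort 7 the medians were 12.5% (Ct), 14.2% (SR), 13.8% (RSR) and 13.2% (SS), and within cohort 8 they were 12.8%, 12.4%, 14.1% and 12.5%. The SR median was thus above the Ct median in cohort 7 and below it in cohort 8, whereas the RSR median was above the Ct median in both. In tissue, a different number of cells of a type and a different amount of mitochondrial RNA per cell cannot be told apart.

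**Figure D1:**
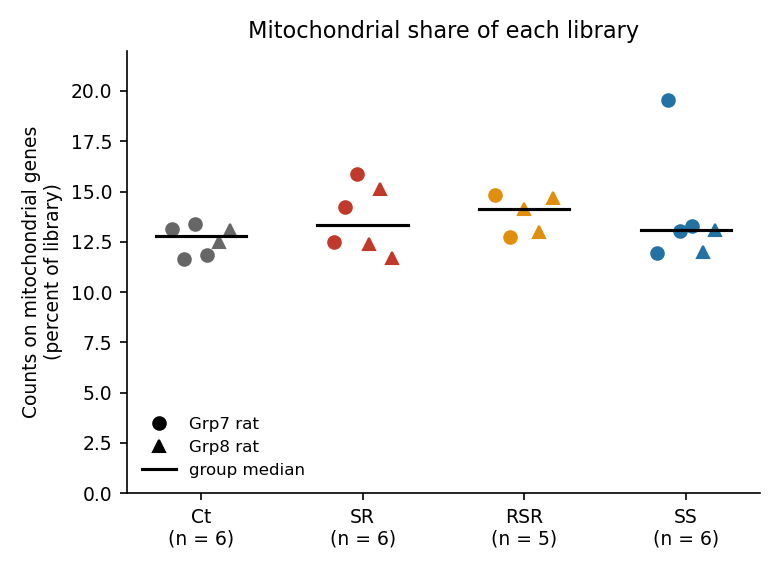
Share of the counts of each library on the 35 mitochondrial genes (percent), by group, with 1 point per rat. The groups overlap between about 12.7% and 13.4%, and SS rat Grp7-R1 stands apart at 19.6%.

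No relation of the share with library depth was detected. Over all 23 rats Pearson's r with the library total was 0.197 (permutation p = 0.3681, two-sided) and Spearman's rho 0.1798 (permutation p = 0.4105). Without the 2 rats farthest from the median total, r was -0.009055 (permutation p = 0.9697, n = 21). It was 0.218 within cohort 7 (permutation p = 0.4853, n = 13) and 0.0148 within cohort 8 (permutation p = 0.9663, n = 10).

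Complex IV, the cytochrome c oxidase that passes electrons to oxygen, took the most mitochondrial counts, with a median of 45.0% over rats (43.6% to 48.8%) on 3 genes. Complex I, the NADH dehydrogenase where most electrons enter the chain, took 27.8% (24.96% to 29.2%) on 7 genes. ATP synthase took 15.1% (14.4% to 15.7%) on 2 genes, and complex III 11.7% (10.8% to 12.0%) on 1. The 22 tRNA genes together took 0.275% (0.231% to 0.324%). The 9 minus-strand genes together took 2.14% (2.01% to 2.33%). This division differed little between rats: the ranges of the 4 groups overlapped for each complex and for the tRNAs.

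Of single genes, Mt-co1, the catalytic subunit of complex IV (ENSRNOG00000034234, MT 5323 to 6867, plus strand), had the most counts, with a median of 25.5% of all mitochondrial counts. Next came Mt-atp6, the proton channel subunit of ATP synthase (ENSRNOG00000031979, MT 7919 to 8599, plus strand), with 13.1%, and Mt-cyb, cytochrome b of complex III (ENSRNOG00000031766, MT 14136 to 15278, plus strand), with 11.7%. The other complex IV subunits Mt-co3 and Mt-co2 had 10.6% and 8.90%. The complex I subunits Mt-nd2 and Mt-nd1 had 9.41% and 8.94%, and Mt-nd5 had 4.53%. The remaining 5 protein genes, Mt-atp8, Mt-nd6, Mt-nd4l, Mt-nd4 and Mt-nd3, had between 0.789% and 2.01% each. Coordinates are those of Rnor6.0, and each gene is a single exon.

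Per kilobase of gene, the order changed. Mt-atp6 had the highest level, 19.2% of mitochondrial counts per kilobase (median over rats), followed by Mt-co1 (16.5), Mt-co3 (13.5), Mt-co2 (13.01), Mt-cyb (10.2), Mt-atp8 (9.86), Mt-nd1 (9.36) and Mt-nd2 (9.06). A gap followed, with Mt-nd4l at 3.96, Mt-nd6 at 3.69, Mt-nd5 at 2.48, Mt-nd3 at 2.27 and Mt-nd4 at 0.603. All 3 complex IV genes were thus at 13.01 or above, whereas the 7 complex I genes were at 9.36 or below. Mt-atp6 was above Mt-co1 in 23 of 23 rats, by a median ratio of 1.16 (1.03 to 1.25). Neighbours in this order that changed places in some rats were Mt-co3 and Mt-co2 (Mt-co3 above in 18 of 23), Mt-cyb and Mt-atp8 (19), Mt-nd1 and Mt-nd2 (20), Mt-nd4l and Mt-nd6 (17) and Mt-nd5 and Mt-nd3 (20). The other neighbours kept their order in 23 of 23 rats.

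**Figure D2:**
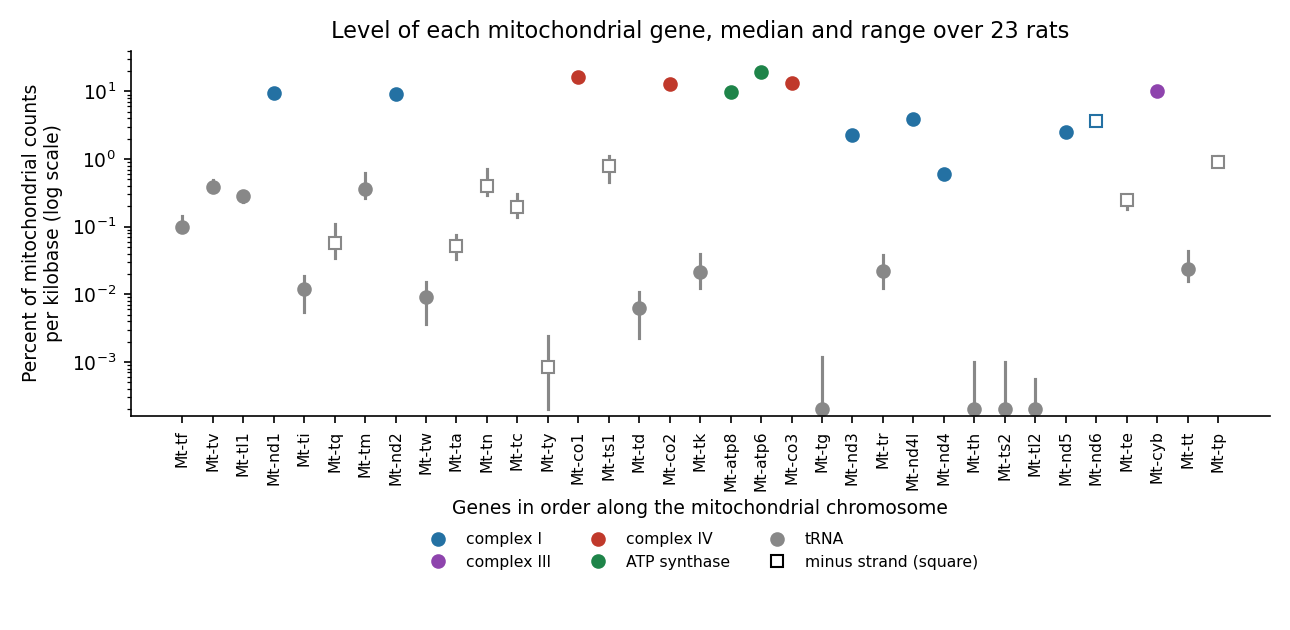
Median share of mitochondrial counts per kilobase of gene over 23 rats (percent per kilobase, log axis) for the 35 genes in their order along the mitochondrial chromosome. Genes with a median of 0 are drawn at the bottom of the axis, Mt-atp6 is highest at 19.2, and Mt-nd4 at 0.603 is the lowest protein gene.

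Mt-nd4, a complex I subunit of the proton pumping arm (ENSRNOG00000029707, MT 10160 to 11537, plus strand), was the lowest of the 13 protein genes per kilobase in the median over rats. Its level was also below that of the tRNA genes Mt-tp (0.917) and Mt-ts1 (0.786). Mt-co1 was 27.5 times higher per kilobase than Mt-nd4 in the median over rats (22.7 to 33.8). The complex I subunit Mt-nd4l (MT 9870 to 10166) shares its transcript with Mt-nd4, overlaps it by 7 bases, and was 6.49 times higher per kilobase (5.57 to 7.76). Mt-nd5 (MT 11736 to 13565), the next protein gene downstream, was 4.17 times higher (3.43 to 4.88). In raw counts, the shorter Mt-nd4l had 1.40 times the counts of Mt-nd4 (1.20 to 1.67). Because these genes share a transcript, the ratios of Mt-nd4l to Mt-nd4 do not compare separate RNAs. Whether Mt-nd4 lost reads that also match nuclear sequence, which counting of unique reads drops, was not tested.

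Mt-atp8, the small ATP synthase subunit (MT 7758 to 7961), also shares its transcript with its neighbour Mt-atp6, and the pair overlap by 43 bases. Mt-atp6 was 1.95 times higher per kilobase (1.84 to 2.171), and the count ratio of Mt-atp8 to Mt-atp6 stayed between 0.138 and 0.163. Mt-nd6, the protein gene of the minus strand (MT 13543 to 14061), overlaps Mt-nd5 by 23 bases and was 1.47 times higher per kilobase than Mt-nd5 (1.31 to 1.69). In all, 7 pairs of neighbours overlap. How the counting treated reads that cover both genes is not given in the sources used here, so the split within these pairs is uncertain. Levels of short genes per kilobase are also affected by the length of the reads, and reads that match a nuclear copy of a mitochondrial sequence as well are lost to counts of unique reads.

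The tRNA genes were low and uneven. The 14 tRNA genes on the plus strand had a median of 0.0166% of mitochondrial counts per kilobase (0 to 0.392), and the 8 on the minus strand 0.221% (0.000855 to 0.917). Mt-tp and Mt-ts1, both on the minus strand, were the highest. At the other end, 5 tRNA genes had at most 5 counts in any library, namely Mt-ty, Mt-tg, Mt-th, Mt-ts2 and Mt-tl2. Mt-tl2 had no more than 1 count in any rat. A gene with 0 counts in a library could have a level of up to 3 counts, or 0.107 to 0.158 CPM (counts scaled to the size of the library). These limits cover counting error only. Of the 5, all but Mt-ty lie in the stretch of 8 genes from Mt-tg to Mt-tl2. That stretch also holds the protein genes Mt-nd3, Mt-nd4l and Mt-nd4, at 0.603 to 3.96 per kilobase, and the arginine tRNA gene Mt-tr. The protein genes Mt-nd5 (2.48) and Mt-nd6 (3.69) were in the same range but lie outside the stretch. Mt-tr had 21 to 82 counts per library and 0.0224% per kilobase, above the median of the plus-strand tRNA genes.

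CPM were computed from library sizes scaled with TMM factors. Across the 23 rats the CPM of a protein gene varied with a coefficient of variation of 14.01% to 23.5% (median 16.7%). The share of the same gene among mitochondrial counts varied by 2.29% to 10.2% (median 4.57%), less than its CPM in 13 of 13 genes. Without SS rat Grp7-R1 the CPM varied less, by 10.06% to 16.98% (median 11.9%), and the share by 2.34% to 9.91% (median 4.66%), still less than the CPM in 13 of 13 genes. The protein genes therefore moved up and down together from rat to rat more than they moved against each other. Mt-nd4 had the highest variation of the protein genes on both scales, with and without that rat. Among the 17 tRNA genes with enough counts to test, the medians were 24.2% for CPM and 21.9% for the share, and the share varied less in 13 of 17.

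**Figure D3:**
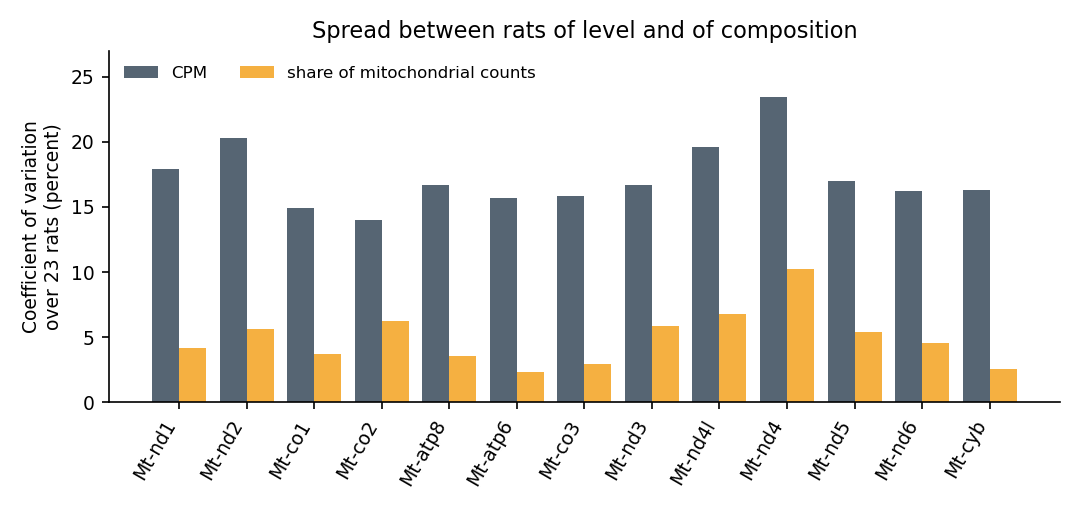
Coefficient of variation over 23 rats (percent) of CPM and of the share of mitochondrial counts for the 13 protein genes. In 13 of 13 protein genes the share varied less than the CPM, and Mt-nd4 was the most variable protein gene on both measures.

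SS rat Grp7-R1 was high in all 13 protein genes. In CPM of the plain library total, without TMM factors, it had 1.45 to 1.86 times the median of the other SS rats (median 1.53). On this scale the smallest ratio was that of Mt-co2 and the largest that of Mt-nd4. The TMM factor of this rat was 0.930, so its TMM-scaled CPM, used elsewhere here, were higher. The composition differed too. The shares of Mt-nd2 (10.2%), Mt-nd4l (1.25%) and Mt-nd4 (0.975%) were above those of the other 5 SS rats, and those of Mt-co1 (24.8%) and Mt-co2 (8.41%) below them. The tRNA genes took 0.234% of its mitochondrial counts, against 0.281% to 0.297% in the other SS rats. Fold changes of the SS group are therefore also given without this rat.

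Levels between groups were compared with edgeR's quasi-likelihood test, fitted on all 16275 genes that passed a filter on low counts, with p-values adjusted by Benjamini-Hochberg over those genes. Of the 35 mitochondrial genes, 30 passed the filter, which were the 13 protein genes and 17 tRNA genes. No mitochondrial gene passed an adjusted p of 0.05 in any of the 6 comparisons, and neither did any other gene. At an unadjusted p under 0.05, 0 of the 30 were called in SR vs Ct (against 4.92% of all genes tested), 1 in RSR vs Ct (4.63%), 0 in SS vs Ct (21.4%), 0 in SR vs SS (8.65%), 0 in RSR vs SS (25.3%) and 0 in SR vs RSR (4.29%). The smallest edgeR adjusted p of a mitochondrial gene was 0.949, 0.982, 0.252, 0.629, 0.349 and 0.846 in the same order. DESeq2 on all groups and on the groups of each pair also called no mitochondrial gene at an adjusted p of 0.05. It did call other genes. On all groups these were 884 of 16271 in SS vs Ct, 726 in RSR vs SS, 1 in SR vs RSR and 0 otherwise. On the groups of each pair they were 936 in SS vs Ct, 1777 in RSR vs SS and 21 in SR vs SS. SR vs Ct gave 15, RSR vs Ct 1 and SR vs RSR 0.

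Against Ct, the mitochondrial genes had small positive log2 fold changes in the 3 METH groups. The median over the 30 genes was 0.15 in SR vs Ct (25 of 30 above 0), 0.15 in RSR vs Ct (28 of 30) and 0.16 in SS vs Ct (26 of 30). The median over all genes tested was 0.00, 0.00 and 0.02. The 13 protein genes were all above 0 in each, with log2 fold changes of 0.07 to 0.20 in SR, 0.09 to 0.38 in RSR and 0.08 to 0.25 in SS. These 3 comparisons share the Ct rats, and the genes vary together, so the counts of genes above 0 are not independent of each other. The SS values rested on rat Grp7-R1. Without it the median in SS vs Ct was 0.00, and 4 of the 13 protein genes were above 0 and 9 below, with log2 fold changes of -0.07 to 0.03. The SR vs Ct median ran from 0.06 to 0.19 when any 1 rat was left out. It was 0.06 without SR rat Grp7-R10, 0.09 without SR rat Grp8-R7 and 0.19 without SR rat Grp8-R8. In RSR vs Ct it stayed between 0.11 and 0.18 when any 1 rat was left out. Between METH groups the medians were -0.02 (SR vs SS), 0.00 (RSR vs SS) and -0.02 (SR vs RSR). Without SS rat Grp7-R1 the first was 0.14 and the second 0.14, and all 13 protein genes were above 0 in both.

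**Figure D4:**
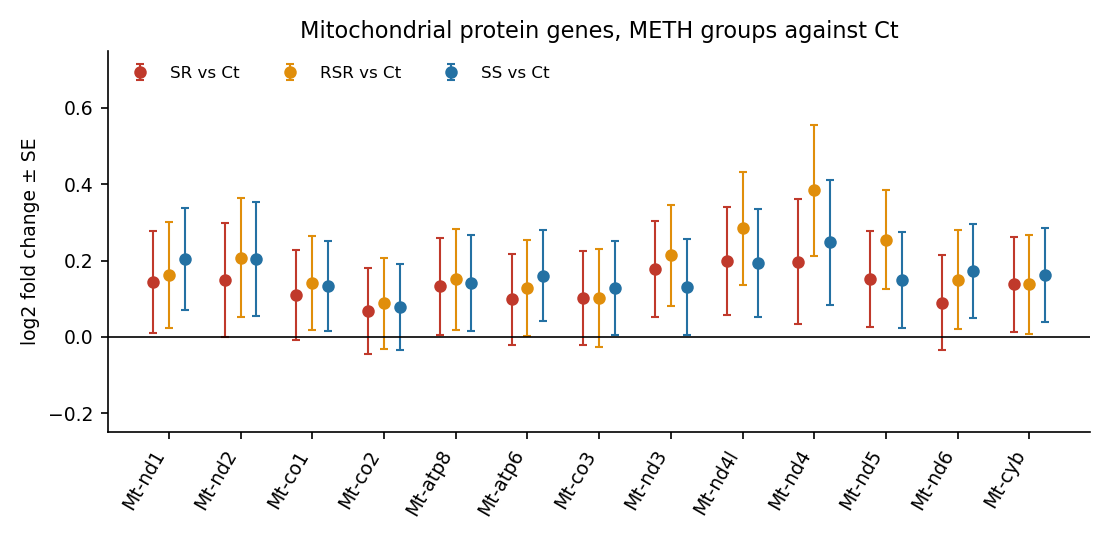
Log2 fold changes, with SE, of the 13 mitochondrial protein genes in SR vs Ct, RSR vs Ct and SS vs Ct. In each of these comparisons all 13 protein genes lie above 0, at most 0.38.

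The most abundant genes showed this pattern. Mt-co1 ran from 29158 to 37694 CPM in Ct rats (median 32398), from 31087 to 40862 in SR (33787), from 32535 to 41662 in RSR (34405) and from 29486 to 52246 in SS (33403). Its log2 fold change against Ct was 0.11 in SR (SE 0.12), 0.14 in RSR (SE 0.12) and 0.13 in SS (SE 0.12). In SS vs Ct it was -0.02 without SS rat Grp7-R1 (SE 0.09). Mt-atp6 had medians of 16574 (Ct), 17428 (SR), 18582 (RSR) and 17040 (SS) CPM, and Mt-cyb 14527, 15636, 16375 and 15335 CPM. For these 3 genes the ranges of each METH group overlapped the Ct range, and the largest log2 fold change against Ct was 0.16. Without SS rat Grp7-R1 those of Mt-atp6 and Mt-cyb in SS vs Ct were both -0.00. Shares of mitochondrial counts were as close. The median share of Mt-co1 was 25.4% in Ct, 25.7% in SR, 25.4% in RSR and 25.7% in SS rats.

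Among the overlapping genes, Mt-nd6 and Mt-atp8 were as close between groups, and Mt-nd4l less so. Mt-nd6 had median CPM of 2448 (Ct), 2599.98 (SR), 2823 (RSR) and 2558 (SS), and log2 fold changes against Ct of 0.09 (SE 0.12), 0.15 (SE 0.13) and 0.17 (SE 0.12), the last of which was 0.02 without SS rat Grp7-R1. Mt-atp8 had medians of 2560.4, 2744, 2904 and 2538 CPM, with log2 fold changes against Ct of 0.13 (SE 0.13), 0.15 (SE 0.13) and 0.14 (SE 0.13), the last of which was -0.03 without that rat. Mt-nd4l ranged from 1170 to 1627 CPM in Ct rats with a median of 1429.7 and from 1597 to 1815 in RSR rats with a median of 1777. Its ranges overlapped between those groups, and its log2 fold change in RSR vs Ct was 0.28 (SE 0.15, edgeR adjusted p = 0.982).

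The one gene called at an unadjusted p was Mt-nd4, in RSR vs Ct. Its level was 1486, 1249, 1281, 1177 and 1298 CPM in the RSR rats (mean 1298 ± 115, SD, n = 5) and ran from 843 to 1108 CPM in Ct rats with a median of 1004 (mean 995 ± 94.5, n = 6). Each RSR rat was thus above each Ct rat. The log2 fold change was 0.38 (SE 0.17, edgeR adjusted p = 0.982). SR rats ran from 837 to 1407 CPM (median 1209.7) and SS rats from 885 to 2052 (median 1033), so both overlapped the Ct and the RSR rats. The overlap of SS with RSR rested on SS rat Grp7-R1, since the other 5 SS rats ran from 885 to 1076 CPM, below each RSR rat. The difference held in both cohorts: the Ct median was 1004 in each, and the RSR median was 1367 in cohort 7 and 1281 in cohort 8.

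**Figure D5:**
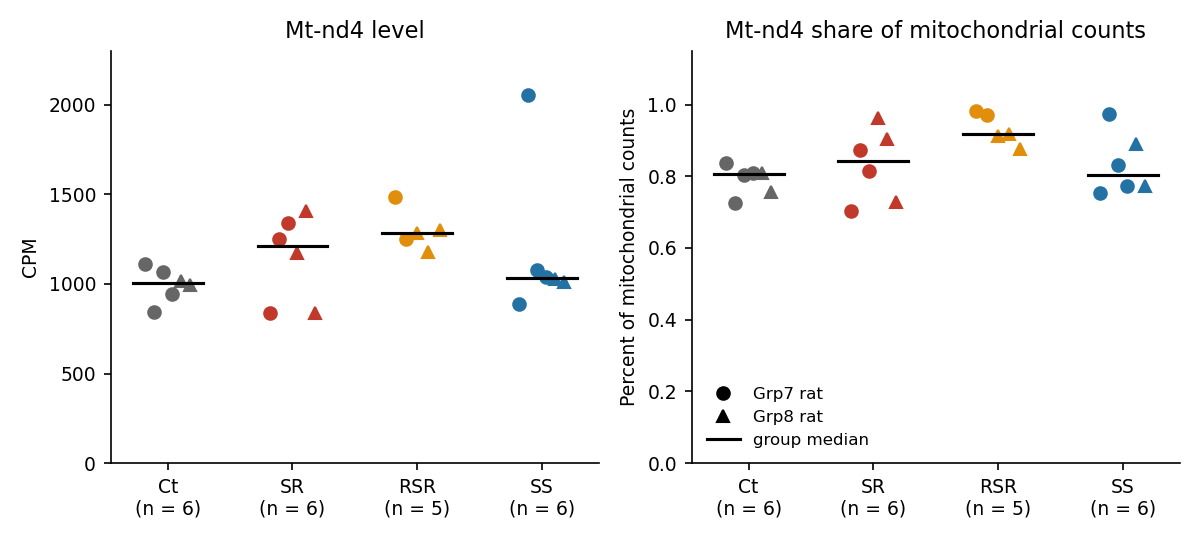
Mt-nd4 in each rat by group, as CPM and as a share of mitochondrial counts (percent). On both scales the 5 RSR rats lie above the 6 Ct rats (1177 to 1486 against 843 to 1108 CPM, and 0.875% to 0.982% against 0.725% to 0.836%), and the SR rats overlap both. In CPM the SS rats reach the RSR rats through SS rat Grp7-R1 alone.

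Mt-nd4 also separated these groups by its share of mitochondrial counts, which ran from 0.725% to 0.836% in Ct and from 0.875% to 0.982% in RSR rats. Over the 35 genes and 6 comparisons, this was 1 of 210 combinations and the only one in which the shares of 2 groups did not overlap. The 210 include the 5 tRNA genes with too few counts to test. How many combinations would separate without any difference between groups was not tested. In CPM, Mt-nd4 and Mt-nd5 had ranges that did not overlap in RSR vs Ct, against 0.387% of all genes tested, and no mitochondrial gene did in SR vs Ct (0.356%), SS vs Ct (0.823%), SR vs SS (0.356%), RSR vs SS (2.48%) or SR vs RSR (0.313%). Without SS rat Grp7-R1, Mt-nd4l, Mt-nd4 and Mt-nd5 were higher in each RSR rat than in each SS rat, against 3.55% of all genes tested with ranges that do not overlap. No mitochondrial gene then had such ranges in SS vs Ct (1.12% of all genes tested) or SR vs SS (0.688%). Mt-nd5 was at 6768, 6869.98, 7088, 6138 and 7022 CPM in RSR rats and ran from 5044 to 6018 in Ct rats with a median of 5766. Its log2 fold change was 0.26 (SE 0.13, edgeR adjusted p = 0.982), and it was not called. Mt-nd5 shares overlapped, at 4.30% to 4.73% in Ct and 4.48% to 5.34% in RSR rats. RSR libraries were also deeper than Ct libraries, with totals of 24588332 to 28137676 against 18967015 to 23248971, and the part of depth in this difference was not tested.

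The call for Mt-nd4 depended on the fit. The unadjusted p rose above 0.05 when 1 of 3 Ct rats (Grp7-R5, Grp7-R12 or Grp8-R11) or 1 of 3 RSR rats (Grp7-L2, Grp8-L4 or Grp8-R1) was left out of the fit, while the log2 fold change stayed between 0.33 and 0.41 over the 23 fits that each left out 1 rat. On only the RSR and Ct rats, edgeR called 5 genes (3.52% of all genes tested) and DESeq2 9 (3.87%), Mt-nd4 included in both. With SS rat Grp7-R1 left out of the fit of all groups, which is in neither group but enters the estimate of the spread, 4 genes were called in RSR vs Ct (4.79% of all genes tested). They were the complex I genes Mt-nd3, Mt-nd4l, Mt-nd4 and Mt-nd5, with log2 fold changes of 0.21, 0.28, 0.38 and 0.25 and edgeR adjusted p = 0.974 for each. The same 4 genes were then called in RSR vs SS (22.5% of all genes tested), with log2 fold changes of 0.24, 0.29, 0.37 and 0.28. The smallest edgeR adjusted p among them was 0.14. In SR vs SS, 3 genes (Mt-tf, Mt-nd3 and Mt-nd4l) were called without this rat (6.85% of all genes tested), and in SR vs Ct 1 gene (Mt-nd4l, 4.91%).

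In the other comparisons the smallest p belonged to a tRNA gene and none passed an unadjusted p of 0.05. In SR vs Ct it was Mt-tv, the valine tRNA gene between the rRNA genes, with medians of 38.0 CPM in SR and 31.8 CPM in Ct rats (log2 fold change 0.24, SE 0.15, edgeR adjusted p = 0.949). In SS vs Ct it was Mt-tp, the proline tRNA gene, with medians of 86.0 and 74.6 CPM (0.23, SE 0.11, edgeR adjusted p = 0.252), and the log2 fold change was 0.12 without SS rat Grp7-R1. In SR vs SS it was Mt-ta, the alanine tRNA gene, at 5.27 and 4.42 CPM (0.29, SE 0.18, edgeR adjusted p = 0.629). In RSR vs SS it was Mt-ts1, a serine tRNA gene, at 72.0 and 76.4 CPM (-0.24, SE 0.16, edgeR adjusted p = 0.349). In SR vs RSR it was Mt-td, the aspartate tRNA gene, at 0.456 and 0.652 CPM (-0.54, SE 0.34, edgeR adjusted p = 0.846). The ranges of the groups overlapped in each of these. Single rats moved several of these values. The log2 fold change was 0.14 for Mt-tv and 0.16 for Mt-ta without SR rat Grp8-R7, -0.10 for Mt-ts1 without RSR rat Grp8-L9, and -0.34 for Mt-td without RSR rat Grp8-L4.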

How the data were processed

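The authors deposited unnormalized counts of each gene, obtained from read pairs trimmed by Trimmomatic 0.36, aligned by STAR 2.5.2b (Rnor6.0) and counted in exons, unique reads only, by featureCounts (Subread 1.5.2). Names and versions are from the submitters' processing notes. From the counts, shares of mitochondrial counts, TMM factors, CPM and log2 fold changes were computed in R 4.3.3. The test was the quasi-likelihood test of edgeR 4.0.16, with 4 groups in one fit and filterByExpr (minimum count 10, minimum total count 15). Each SE was derived from the F statistic of that test. It was checked on simulated data. DESeq2 1.42.0 was an alternative, as were other scaling, filters, covariates and samples in the fit.

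The members and lists were chosen with earlier results of these data known. By rule, values by group are given for the 3 genes with the highest share, the minus-strand protein gene, the overlapping pairs, and the gene with the smallest p in each comparison. Mt-nd5 was added after its values were seen. Rats of a group differed by more than sampling noise in each pair. Permutation tests drew 100000 resamples. Nuclear genes of the respiratory chain, cell type markers and gene sequences were not analysed here.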

Additional observations from a re-analysis of the deposited data

Results flagged for a closer look

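In 15 measures of mitochondrial counts (shares of the library and of single genes and gene groups), each group of rats was searched for a rat far from the others by Dixon's criterion. Of 60 sets of values, 5 held such a rat, and chance would give about 3.

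SS rat Grp7-R1 had a mitochondrial share of the library of 19.6%, against 11.9% to 13.3% in the other SS rats, and a tRNA share of mitochondrial counts of 0.234%, against 0.281% to 0.297%. Ct rat Grp7-L7 had a Mt-co1 share of 28.4%, against 25.02% to 25.7% in the other Ct rats, and a Mt-cyb share of 10.8%, against 11.5% to 11.9%. Its library had the lowest total count (18967015). RSR rat Grp7-L2 had a Mt-cyb share of 11.02%, against 11.5% to 11.7% in the other RSR rats, and the highest total count (28137676).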

How the results depend on the processing

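No paired analysis was possible because no rat code is shared between groups. The alternative for nuclear genes of the respiratory chain was not run, since no table paired their identifiers with symbols. The number of mitochondrial genes with an adjusted p under 0.05 stayed at 0 in all 6 comparisons under each alternative run. The median log2 fold change of a comparison moved by less than the spread between rats under the alternatives run, and so did the group medians of the mitochondrial share. That spread includes SS rat Grp7-R1. A move from 0.16 to 0.00 in SS vs Ct without this rat still lay within it, so the check cannot show that the medians were stable. The direction of the median log2 fold change was not stable in all. With the log2 mitochondrial share as covariate, added after the data were seen, it was -0.01 in SR vs Ct, -0.01 in RSR vs Ct and -0.00 in SS vs Ct, which a covariate made from the sum of these genes brings about by construction. The cohort covariate turned it from -0.02 to 0.00 in SR vs SS.

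Calls at an unadjusted p moved. In RSR vs Ct, 9 genes were called by DESeq2 on only the 2 groups (3.87% of all genes; Mt-nd4 adjusted p = 0.0648) and 5 by edgeR on only the 2 groups (3.52%), against 1. In RSR vs SS, 1 was called with the cohort number as covariate (Mt-td, 22.5% of all genes) and 2 with the log2 mitochondrial share as covariate (Mt-nd4 and Mt-nd5, 25.3%), against 0. In SR vs RSR, 1 was called with no filter on low counts (Mt-ts2, at most 2 counts per library, 4.32%) and 1 with the mitochondrial share as covariate (Mt-nd4, 4.08%), against 0. The cause of these shifts was not tested. With that covariate the log2 fold change of Mt-nd4 in RSR vs Ct was 0.18, still called.

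With 1 rat left out at a time, called genes ranged from 0 to 4 in RSR vs Ct and in RSR vs SS, from 0 to 3 in SR vs SS and from 0 to 1 in SR vs Ct and in SS vs Ct, and stayed at 0 in SR vs RSR. The highest counts of RSR vs Ct, RSR vs SS and SR vs SS came without SS rat Grp7-R1. RSR vs Ct gave 2 without Ct rat Grp7-L7 (5.95% of all genes) or Grp8-L11 (7.44%). Mt-tp was called in SS vs Ct without Ct rat Grp7-L7 (18.5%), Ct rat Grp7-R6 (18.6%) or SS rat Grp8-L5 (20.6%), and Mt-ta in SR vs Ct (5.35%) and SR vs SS (6.33%) without SR rat Grp8-R4. The relation of the mitochondrial share with library total turned from r = 0.197 to -0.009055 without the 2 rats farthest from the median total.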
